A study of Eonycteris spelaea and Mus musculus with 51 samples.

Results

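Heat shock transcription factors are the proteins that switch on chaperone genes when cells meet unfolded protein, and 3 of them together with 1 small binding partner are described here: HSF1, HSF2, HSF4 and the heat shock factor binding protein HSBP1. They were taken by name, as the mouse rows Hsf1, Hsf2, Hsf4 and Hsbp1 and the bat rows with the human Ensembl identifiers ENSG00000185122 (HSF1), ENSG00000025156 (HSF2), ENSG00000102878 (HSF4) and ENSG00000230989 (HSBP1). That makes 8 rows, 4 in each species, of 70857 rows in all (30017 bat, 40840 mouse). RNA was sequenced in bulk from lung, muscle and blood of Eonycteris spelaea, the cave nectar bat, and from the same tissues of mice. Heat animals were taken straight after 1 h of heat shock given in vivo, and recovery animals had the same 1 h followed by 4 h of recovery. Control animals are titled Ctl, with no time of harvest in the titles. The 51 libraries (27 bat, 24 mouse) formed 18 groups of 3 libraries each, except 2 in each mouse blood group. The labels give no strain, age or sex and no genetic change in any group. No separate control group for the recovery time is among the libraries used here, so heat cannot be told apart from handling or elapsed time. Nothing in the labels says which libraries came from the same animal.

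HSF1 is the main activator of chaperone genes in mammals. It is held inactive by chaperones in unstressed cells and, once these are taken up by unfolded protein, forms trimers, enters the nucleus and binds heat shock elements in promoters. This activation acts on protein already present. HSF2 is better known from development and germ cells, is short-lived, and can form mixed trimers with HSF1. HSF4 is known mainly for its role in the eye lens and has isoforms that activate or repress. HSBP1 is a small coiled-coil protein that binds the trimer of HSF1 and dampens its activity.

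In GENCODE M21 (build GRCm38) Hsf1 lies on mouse chromosome 15, Hsf2 on chromosome 10, and Hsf4 and Hsbp1 both on chromosome 8, all on the plus strand and with no overlapping annotated gene. Hsf1, Hsf2 and Hsf4 share a DNA-binding domain, while Hsbp1 is unrelated to them and short. The coding sequence of Hsbp1 is shown for its size: it has 228 bases (76 codons, start codon in capitals, stop left out), against 1575 bases in Hsf1, 1551 in Hsf2 and 1476 in Hsf4. It reads:
Hsbp1: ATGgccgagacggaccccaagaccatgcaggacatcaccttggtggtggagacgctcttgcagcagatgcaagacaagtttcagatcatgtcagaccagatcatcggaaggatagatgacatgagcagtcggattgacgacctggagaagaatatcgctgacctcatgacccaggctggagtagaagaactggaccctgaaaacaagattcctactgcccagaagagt

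Total counts were 9.29 to 33.3 M per bat library and 17.1 to 54.5 M per mouse library. Bat rows held 147 to 1075 reads for HSF1, 15 to 686 for HSF2, 23 to 779 for HSF4 and 154 to 3485 for HSBP1, and mouse rows held 277 to 1342 reads for Hsf1, 116 to 1777 for Hsf2, 1 to 356 for Hsf4 and 311 to 1322 for Hsbp1. The mouse tissue labels fitted their markers: the summed level of 6 lung epithelial markers was 8030 to 9340 CPM in lung and at most 15.5 CPM elsewhere, and that of 6 skeletal muscle markers 199000 to 397000 CPM in muscle and at most 1790 CPM elsewhere. That of 6 erythroid markers was 707000 to 1690000 CPM in blood and at most 4340 CPM elsewhere. CPM are counts per 1000000 counts after scaling by TMM, the trimmed mean of M values, so such a sum can pass the library's own total. Bat tissue labels were not checked here. Bat blood recovery 2 stood apart from the other bat blood libraries in all 4 rows. Several values that rest on it are given with and without it, but not every one.

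All 4 genes were detected in control animals of each tissue, and between tissues their levels followed different orders. For this, all libraries of a species were scaled together. In mouse control muscle, levels per kilobase of 1 annotated transcript were 63.0 ± 5.72 CPM per kb for Hsbp1, 17.6 ± 3.30 for Hsf1, 11.5 ± 1.40 for Hsf2 and 3.09 ± 1.15 for Hsf4 (SD, n = 3). The order of these per-kilobase levels was the same in control lung, at 32.0 ± 1.64 for Hsbp1, 10.7 ± 1.12 for Hsf1, 4.54 ± 0.979 for Hsf2 and 3.47 ± 0.542 for Hsf4 (SD, n = 3), where Hsf2 and Hsf4 differed by about their spread. In control blood it was the same again, at 29.6 ± 3.18, 10.4 ± 0.210, 3.15 ± 0.405 and 0.407 ± 0.134 CPM per kb for Hsbp1, Hsf1, Hsf2 and Hsf4 (SD, n = 2). By this length Hsbp1 had the highest level of the 4 genes and Hsf4 the lowest in every mouse tissue. The order rests on the length used. These transcripts have 2.084 kb for Hsf1, 2.604 for Hsf2, 1.739 for Hsf4 and 0.638 for Hsbp1. All annotated exons together cover 7.099, 9.606, 1.753 and 1.861 kb in the same order. Counts were of whole genes, and levels per these longer lengths were not computed, so no order among Hsf1, Hsf2 and Hsf4 is read.

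Between tissues of control mice, 56 to 67% of all rows were called at an adjusted p under 0.05 (edgeR quasi-likelihood test, Benjamini-Hochberg over all rows tested; 56% of 22592 rows for lung against muscle, 60.7% for lung against blood and 67% for muscle against blood), so a call here sets no gene apart. The scaling also decided many directions: with library size alone as the scaling, the median row moved by 1.01 (log2) for lung against muscle, 1.58 for lung against blood and 0.56 for muscle against blood. Under TMM the median row stood at 0.08, 0.14 and 0.25 in the same 3 comparisons.

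Hsf4 was lowest in mouse blood. Its levels were 5.38 ± 2.00 CPM in control muscle and 6.03 ± 0.943 CPM in control lung (SD, n = 3 each), against 0.708 ± 0.234 CPM in control blood (SD, n = 2). The log2 difference was 2.90 for muscle against blood (SE 0.54, edgeR adjusted p = 0.000108) and 3.07 for lung against blood (SE 0.54, edgeR adjusted p = 7.39e-05). Lung and muscle did not differ beyond their spread in Hsf4 under TMM (0.17, edgeR adjusted p = 0.737), although with library size alone the difference was 1.24 (adjusted p = 0.00692).

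Hsf2 was highest in mouse muscle. It had 30.0 ± 3.64 CPM in control muscle, 11.8 ± 2.55 CPM in control lung (SD, n = 3 each) and 8.20 ± 1.05 CPM in control blood (SD, n = 2). Muscle stood above blood by 1.87 on the log2 scale (SE 0.22, edgeR adjusted p = 6.19e-07) and lung below muscle at -1.34 (SE 0.19, edgeR adjusted p = 5.2e-06). The second of these fell to -0.31 with library size alone (adjusted p = 0.324). Lung was above blood by 0.53 (edgeR adjusted p = 0.0394), a call that was lost without any of 3 control libraries: lung 1 (adjusted p = 0.117), lung 3 (0.0522) and blood 1 (0.132).

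Hsf1 and Hsbp1 were also above blood in mouse muscle. Hsf1 had 36.6 ± 6.88 CPM in control muscle (SD, n = 3) and 21.6 ± 0.437 CPM in control blood (SD, n = 2), a log2 difference of 0.76 (SE 0.19, edgeR adjusted p = 0.00203). Hsbp1 had 40.2 ± 3.65 CPM in control muscle (SD, n = 3) and 18.9 ± 2.03 CPM in control blood (SD, n = 2), a difference of 1.09 (SE 0.14, edgeR adjusted p = 1.66e-06). In control lung Hsf1 was at 22.2 ± 2.34 CPM and Hsbp1 at 20.4 ± 1.05 CPM (SD, n = 3). Both were called lower in lung than in muscle (Hsf1 -0.72, edgeR adjusted p = 0.00129; Hsbp1 -0.98, edgeR adjusted p = 1.29e-06), but both signs turned with library size alone (Hsf1 0.32, Hsbp1 0.05, adjusted p = 0.115 and 0.82), so no order between lung and muscle is read for them.

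In control bats HSF4 was low in muscle. It had 3.82 ± 2.02 CPM in muscle, 14.6 ± 8.33 CPM in lung and 17.9 ± 2.27 CPM in blood (SD, n = 3 each). Muscle was below blood at -2.22 (SE 0.54, edgeR adjusted p = 0.00104) and lung above muscle at 1.92 (SE 0.54, edgeR adjusted p = 0.00438), and lung and blood did not differ beyond their spread (-0.30, edgeR adjusted p = 0.638). Among 20395 rows, 64.5% were called for muscle against blood, 55.9% for lung against muscle and 57.6% for lung against blood, while the median row stood at 0.03, 0.60 and 0.38. The bat tissue with the lowest HSF4 was thus muscle, and the mouse tissue with the lowest Hsf4 was blood. Levels were not compared between species, since the rows of the 2 tables need not have the same length.

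HSF2 was higher in bat muscle than in bat blood. It had 29.4 ± 6.05 CPM in control muscle, 14.7 ± 0.637 CPM in control lung and 7.36 ± 3.05 CPM in control blood (SD, n = 3 each), and muscle was above blood by 2.00 (SE 0.43, edgeR adjusted p = 0.000284). Lung was called below muscle (-1.0, edgeR adjusted p = 0.0438) and above blood (0.99, edgeR adjusted p = 0.0461), both close to the threshold. The first call was lost without any 1 of the 6 control libraries of those tissues, and its sign turned with library size alone (0.40, adjusted p = 0.425). The second was lost without any of lung 1, 2 and 3 and blood 1 and 2 (adjusted p 0.0724 to 0.194).

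HSF1 in control bats was at 18.4 ± 5.99 CPM in lung, 15.9 ± 2.62 CPM in muscle and 26 ± 9.22 CPM in blood (SD, n = 3 each), and no pair of tissues passed the test under TMM (lowest edgeR adjusted p = 0.16). With library size alone, lung was above muscle (1.62, adjusted p = 0.0013) and muscle below blood (-1.35, adjusted p = 0.00615). HSBP1 was at 24.3 ± 5.10 CPM in lung, 55.4 ± 11 CPM in muscle and 46.5 ± 19.0 CPM in blood (SD, n = 3 each). Lung was called below muscle (-1.19, edgeR adjusted p = 0.0376), but with library size alone the sign turned (0.21, adjusted p = 0.702), and 5 of 6 control libraries could not be left out without losing the call (adjusted p 0.056 to 0.12).

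Heat shock and recovery gave no edgeR call in the mRNA of these genes. In 72 tests within a tissue (4 genes, 3 contrasts, 3 tissues, both species) edgeR called 0, with 4 at an unadjusted p under 0.05. Of these, 3 were in mouse muscle: Hsbp1 at heat, and Hsf2 at recovery against control and against heat. All rows at that p there were 5318, 879 and 3494 of 17746. The other was HSF1 in bat muscle at heat, where 2840 of 15950 rows had such a p. DESeq2 called 2, both Hsf2 in mouse muscle at recovery (against control and against heat), with 5 at an unadjusted p under 0.05. Of all rows it called 114 and 1211 in those 2 contrasts. From here on, CPM are scaled within a tissue and are not on the scale of the levels between tissues above. Because tissues were sequenced in bulk, fewer cells of a type and less RNA per cell cannot be told apart in any of these values. Where 0 of 4 genes were called, the share of all rows called in the same comparison is given beside it.

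**Figure D1:**
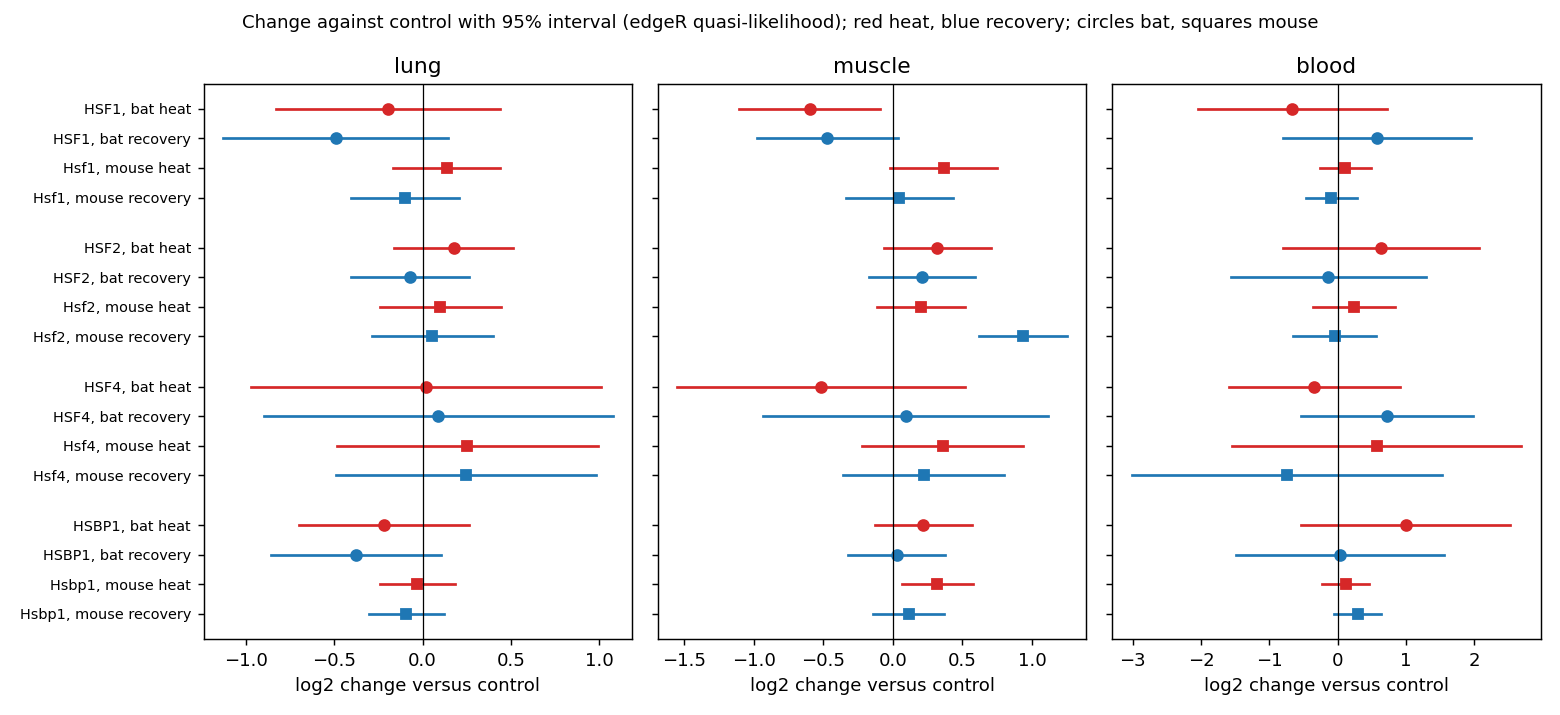
Log2 change against control of the 4 genes in lung, muscle and blood, with the 95% interval of the edgeR quasi-likelihood fit; red stands for heat and blue for recovery, circles for bat and squares for mouse, and each panel has its own axis. Mouse Hsf2 at recovery in muscle lies farthest from 0 relative to its interval (0.93, interval 0.62 to 1.25), and the blood intervals in the bat are wide.

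Mouse muscle held the largest shift relative to its error, in Hsf2. Its levels were 24, 22.7 and 27.9 CPM in control, 27.3, 26.4 and 32.0 CPM at heat, and 40.3, 49.0 and 53.0 CPM at recovery. All 3 recovery libraries lay above every control and heat library, while heat and control overlapped. The log2 difference was 0.93 for recovery against control (SE 0.14, edgeR adjusted p = 0.0861) and 0.73 for recovery against heat (SE 0.14, edgeR adjusted p = 0.0577). Neither passed the threshold. Of 17746 rows, 0.0676% were called for recovery against control and 0.468% for recovery against heat, so few rows of any kind passed at this spread. The unadjusted p was 9.7e-05 against control and 0.000553 against heat.

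The Hsf2 calls depended on the method. DESeq2 called both differences (0.93, adjusted p = 1.77e-05, and 0.69, adjusted p = 0.00246), as did edgeR with no filter on low counts (adjusted p = 0.0475 and 0.0466). Leaving out recovery 1 gave 1.04 against control with an edgeR adjusted p of 0.0254. Over the 9 fits that each left out 1 library, the log2 difference from control stayed between 0.85 and 1.04, and the adjusted p ran from 0.0254 to 0.624. With library size alone the differences were 0.77 against control (edgeR adjusted p = 0.116) and 0.93 against heat (edgeR adjusted p = 0.0491). Under TMM recovery 1 had the lowest Hsf2 of the 3 recovery libraries. With library size alone the 3 lay at 46.3 to 49.0 CPM and recovery 1 was not the lowest, so that order rests on the scaling. Recovery 1 also differed in its other cells. The summed level of 5 B cell markers, all detected, was 227 CPM there, against 1.36 and 0.782 CPM in recovery 2 and 3. Control muscle held 135, 101 and 38.4 CPM of these markers and heat muscle 1.54, 11.5 and 14.6 CPM, with 1 marker at 0 in heat 1 and in recovery 3. Recovery 1 also stood apart in markers of T and NK cells (50.2 CPM, against 0.469 and 0.782 CPM in recovery 2 and 3), of adipocytes (529 CPM, against 180 and 242 CPM) and of skeletal muscle (199000 CPM, against 330000 and 379000 CPM). The part of these cells in the Hsf2 difference was not tested. Slow fibre markers varied widely within groups. They were at 100, 190 and 32.9 CPM in control, 1.95, 61.9 and 891 CPM at heat and 977, 728 and 69.6 CPM at recovery. Recovery 1 and 2 thus lay above every control library in these markers, and recovery 3 lay among the control libraries. The part of slow fibres in the Hsf2 difference was not tested either.

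**Figure D2:**
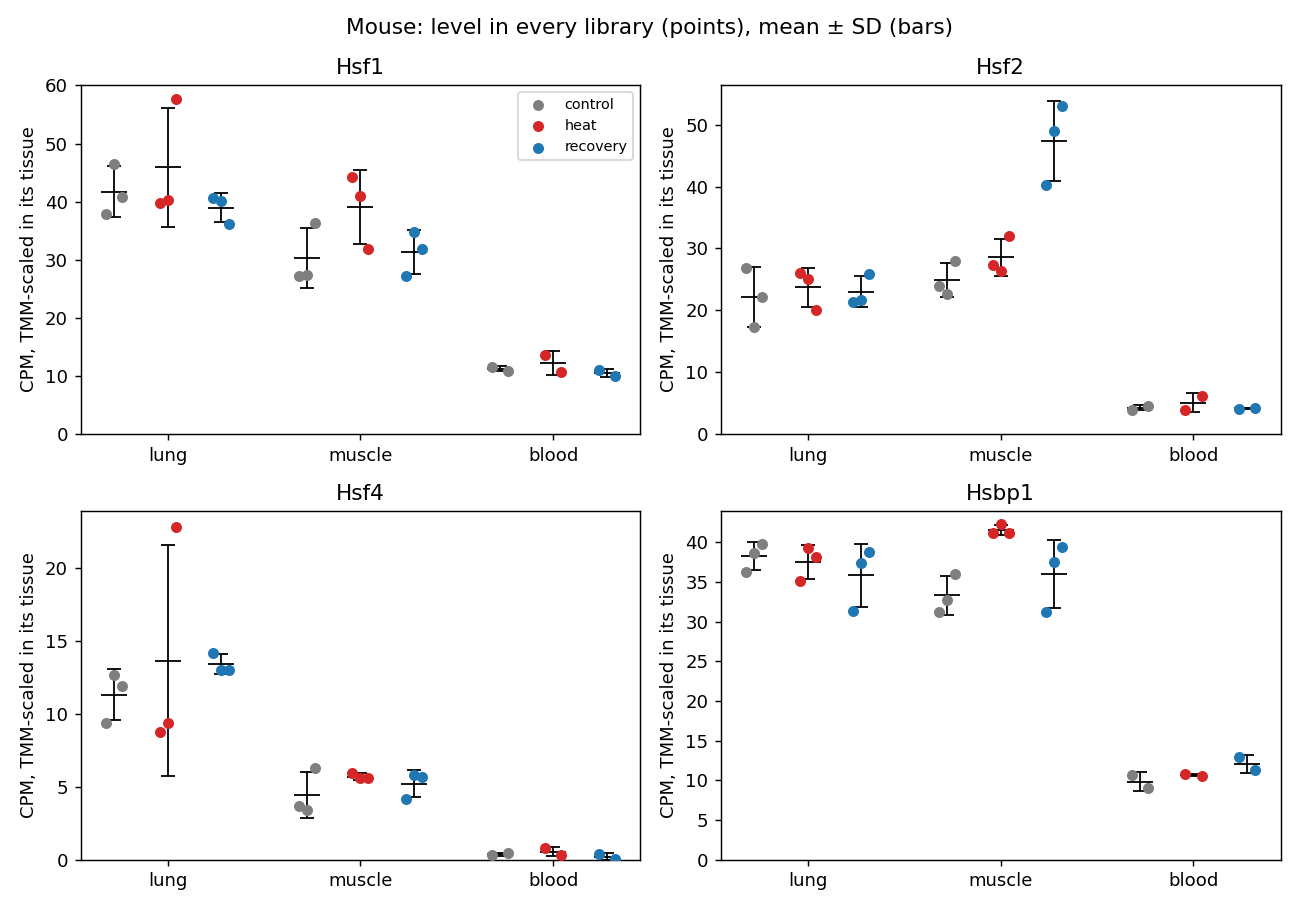
Level of Hsf1, Hsf2, Hsf4 and Hsbp1 in every mouse library, in CPM scaled within the tissue; each point is 1 library and bars show mean ± SD for control, heat and recovery in lung, muscle and blood. Hsf2 in recovery muscle lies at 40.3 to 53.0 CPM, above the 22.7 to 32.0 CPM of control and heat muscle, and 1 lung heat library stands high in Hsf1 and Hsf4.

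Directly after heat, Hsbp1 in mouse muscle was at 41.2, 42.3 and 41.2 CPM, against 31.2, 32.7 and 36.0 CPM in control. The heat libraries did not overlap the control libraries, and the log2 difference was 0.32 (SE 0.11, edgeR adjusted p = 0.124). Hsf1 was at 44.2, 41.0 and 31.9 CPM at heat, against 27.2, 27.3 and 36.3 CPM in control, and these overlapped (0.37, SE 0.17, edgeR adjusted p = 0.18). Both differences rested on the scaling. With library size alone they were -0.05 for Hsbp1 and 0.00 for Hsf1, since that scaling moved the median row of this comparison by -0.38. Of all rows, 0.428% were called for heat against control.

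Marker levels of other cells differed between heat and control in the same muscle libraries. The summed level of 6 T and NK cell markers was 0.0812 to 1.8 CPM at heat, with up to 5 of the 6 at 0 in a library, against 8.93 to 37.5 CPM in control, and that of 5 B cell markers was lower at heat in every library, as given above. That of 5 macrophage markers was 26 to 59.7 CPM at heat, against 60.9 to 128 CPM in control, and that of 3 adipocyte markers 47.2 to 208 CPM at heat, against 208 to 874 CPM in control. The 6 skeletal muscle markers summed to 397000, 379000 and 351000 CPM at heat, against 211000, 203000 and 352000 CPM in control. Control 3 thus lay within the heat libraries or next to them in muscle and adipocyte markers. Under TMM control 3 also had the highest Hsf1 and Hsbp1 of the control libraries. With library size alone it had the lowest Hsbp1 of the 3 (34.5 to 40.6 CPM), and Hsf1 was close in all 3 (33.1 to 34.7 CPM). The part of these cells in the Hsbp1 and Hsf1 values was not tested.

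In the other mouse muscle contrasts Hsf1, Hsf4 and Hsbp1 gave values within the spread. Hsf4 was at 3.69, 3.38 and 6.27 CPM in control, 5.96, 5.57 and 5.57 CPM at heat and 4.13, 5.81 and 5.64 CPM at recovery. Recovery differed from control by 0.05 for Hsf1 (95% interval -0.34 to 0.43), 0.22 for Hsf4 (-0.36 to 0.80) and 0.11 for Hsbp1 (-0.14 to 0.37). For each of the 3 a doubling at recovery lay outside the interval.

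In mouse lung, 5.85% of 19438 rows were called at heat, 0.0309% at recovery against control and 11.3% for recovery against heat, and 0 of the 4 genes in each. Hsf1 was at 37.8, 46.5 and 40.8 CPM in control, 39.7, 40.3 and 57.7 CPM at heat and 40.6, 40.1 and 36.1 CPM at recovery. Heat differed from control by 0.14 for Hsf1 (95% interval -0.17 to 0.44), 0.10 for Hsf2 (-0.24 to 0.44) and -0.03 for Hsbp1 (-0.24 to 0.18). These intervals are narrow, and for each of these 3 genes a doubling lay outside its interval. Hsf2 ran from 17.3 to 26.9 CPM and Hsbp1 from 31.3 to 39.8 CPM over all 9 lung libraries.

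Hsf4 in mouse lung turned on 1 library. It was at 9.35, 12.7 and 11.9 CPM in control, 8.76, 9.37 and 22.8 CPM at heat and 14.2, 13.0 and 13.0 CPM at recovery. Heat 3, which also had the highest Hsf1, was the only heat library above recovery. With it, the difference between heat and control was 0.25 (SE 0.33, edgeR adjusted p = 0.698) and that between recovery and heat -0.01 (edgeR adjusted p = 0.989). Without it, they were -0.32 (adjusted p = 0.241) and 0.56 (adjusted p = 0.0283), so that recovery was then called above heat. Its lung markers summed to 9200 CPM, against 8740 and 9340 CPM in heat 1 and 2, and its neutrophil markers to 29.6 CPM, against 85.8 and 47.9 CPM. The part of these cells in the Hsf4 level was not tested.

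In mouse blood, 0% of 15869 rows were called at heat and 0% at recovery against control, and 3.99% for recovery against heat. Hsf1 was at 11.5 and 10.9 CPM in control, 13.6 and 10.7 CPM at heat and 11 and 10 CPM at recovery. Hsbp1 was at 10.7 and 8.97 CPM in control, 10.8 and 10.6 CPM at heat and 12.9 and 11.3 CPM at recovery, with the recovery libraries above the control libraries (0.30, SE 0.14, edgeR adjusted p = 0.562; -0.31 with library size alone, which moved the median row by -0.62). Hsf2 ran from 3.93 to 6.11 CPM. Hsf4 had only 1 to 32 reads per library, and its intervals against control, -1.54 to 2.69 at heat and -3.02 to 1.53 at recovery, span changes of either sign at this depth.

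The bat rows gave no call either. In bat muscle HSF1 was at 11.4, 8.64 and 8.30 CPM in control, 5.83, 6.46 and 6.43 CPM at heat and 6.02, 5.58 and 8.86 CPM at recovery. All 3 heat libraries lay below every control library, while recovery 3 lay among the control libraries. The log2 difference was -0.60 at heat (SE 0.23, edgeR adjusted p = 0.213) and -0.47 at recovery (SE 0.23, edgeR adjusted p = 0.25). Over the fits that left out 1 library the value at heat stayed between -0.68 and -0.44. Of 15950 rows, 0.0376% were called at heat, 2.67% at recovery against control and 0.00627% for recovery against heat.

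The other bat muscle rows did not pass the test. HSF2 was at 15.4, 21.2 and 15.7 CPM in control, 20.1, 20.5 and 24.6 CPM at heat and 21, 21 and 18.5 CPM at recovery, and its groups overlapped. Recovery differed from control by 0.21 in bat HSF2 (95% interval -0.17 to 0.59), an interval that holds no doubling. HSBP1 differed from control by 0.22 at heat (-0.13 to 0.57) and 0.03 at recovery (-0.32 to 0.37). HSF4, at 0.826 to 3.70 CPM, had intervals from -1.55 to 0.52 at heat and -0.93 to 1.11 at recovery.

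**Figure D3:**
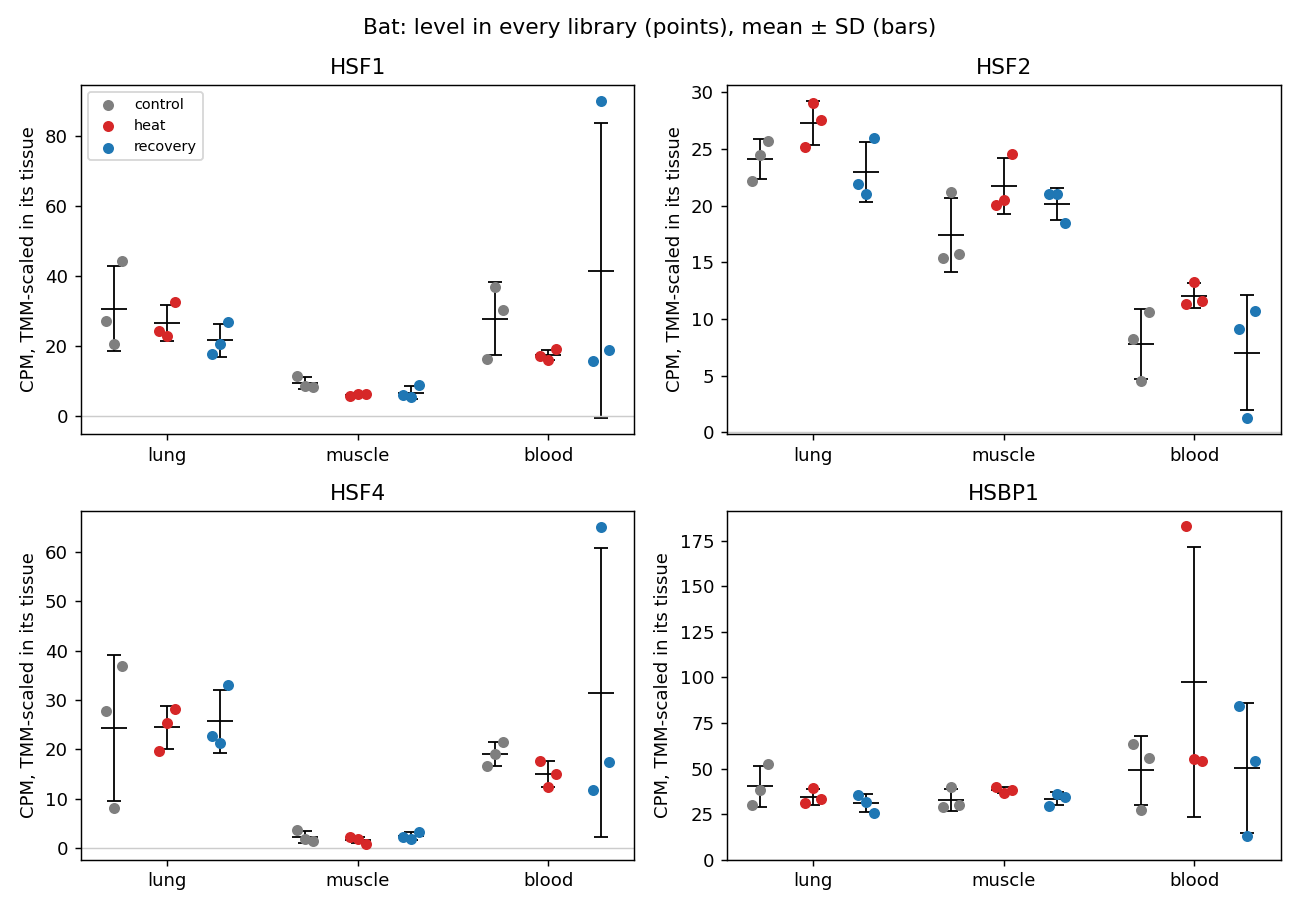
Level of HSF1, HSF2, HSF4 and HSBP1 in every bat library, in CPM scaled within the tissue; each point is 1 library and bars show mean ± SD for control, heat and recovery in lung, muscle and blood. Blood recovery 2 is far above the other blood libraries in HSF1 and HSF4 and lowest in HSF2 and HSBP1, and blood heat 1 is highest in HSBP1.

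In bat lung, 0% of 19149 rows were called at heat, 0.047% at recovery against control and 0.125% for recovery against heat. HSF1 was at 27.2, 20.7 and 44.2 CPM in control, 24.4, 23.0 and 32.6 CPM at heat and 17.7, 20.6 and 26.8 CPM at recovery. The groups overlapped, and recovery differed from control by -0.49 (SE 0.28, edgeR adjusted p = 0.425). The difference was largely that of control 3, the shallowest library at 9.29 M counts: without it the value was -0.14 (adjusted p = 0.815). HSF2 varied little, from 21 to 29.1 CPM over the 9 lung libraries, and its interval at heat was -0.16 to 0.51. HSF4 was at 27.8, 8.11 and 37.0 CPM in control, wider apart than its 6 other lung libraries at 19.7 to 33.0 CPM. HSBP1 differed from control by -0.22 at heat and -0.38 at recovery (edgeR adjusted p = 0.767 and 0.422).

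In bat blood, 0% of 16038 rows were called in each of the 3 contrasts, and single libraries stood far from the rest in these genes. HSF1 was at 16.4, 36.8 and 30.2 CPM in control, 17.1, 16.2 and 19.2 CPM at heat and 15.7, 89.9 and 18.9 CPM at recovery. HSF4 was at 16.6, 19.0 and 21.4 CPM in control, 17.7, 12.3 and 15 CPM at heat and 11.7, 65.2 and 17.5 CPM at recovery. Recovery 2 was thus the highest of all 9 libraries in both rows. In HSF2 it was the lowest, at 1.25 CPM, against 9.15 and 10.7 CPM in the other recovery libraries, 11.3 to 13.3 CPM at heat and 4.48 to 10.6 CPM in control. In HSBP1 it was the lowest again, at 12.9 CPM, against 84.2 and 54.2 CPM in the other recovery libraries, while heat 1 was the highest at 183.0 CPM, against 55.1 and 54.4 CPM in heat 2 and 3. Control 2 had the highest HSF1 and the lowest HSF2 and HSBP1 (27.4 CPM) of the control libraries.

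With recovery 2, recovery differed from control in bat blood by 0.58 for HSF1, 0.73 for HSF4, -0.13 for HSF2 and 0.04 for HSBP1. Without it the signs of HSF1, HSF4 and HSF2 turned, and the values in the same order were -0.62, -0.32, 0.41 and 0.56 (edgeR adjusted p 0.762 to 0.872). Against heat, recovery was higher by 1.24 for HSF1 and 1.07 for HSF4 with recovery 2, and differed by 0.00 and -0.03 without it. HSBP1 at heat was 1.00 above control with heat 1 and 0.15 without it, and neither passed the test. In simulated counts of this comparison, edgeR recovered 0% of rows changed 2-fold and 0% of rows changed 4-fold.

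No difference in response between tissues was called for any of the 4 genes. In the mouse the response of Hsf2 at recovery was larger in muscle than in lung by 0.88 (95% interval 0.33 to 1.42, edgeR adjusted p = 0.854) and larger in muscle than in blood by 1.01 (0.38 to 1.63, edgeR adjusted p = 0.227). Neither passed the test. Among the alternatives run, both were called only in the fit without recovery 1 of muscle, at 1.01 (adjusted p = 0.038) and 1.14 (adjusted p = 0.0342). Of 22592 mouse rows, the share called at recovery was 0.0398% for muscle against lung, 0.0797% for muscle against blood and 0.0221% for lung against blood. At heat it was 0.0443%, 1.47% and 0.0575%, and the difference for Hsbp1 between muscle and lung was 0.37 (0.01 to 0.73, edgeR adjusted p = 0.271). Of 20395 bat rows, 0% were called in each of the 3 comparisons at heat, and 0.559%, 0.319% and 0.0147% at recovery for muscle against lung, muscle against blood and lung against blood. The bat differences between tissues ran from -1.18 to 0.49 at heat and from -1.07 to 0.31 at recovery, with the lowest edgeR adjusted p at 0.403. The -1.07, HSF1 in muscle against blood, was 0.15 without blood recovery 2.

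Between the species, the response of Hsf1 in muscle at heat was called different, but the call and its size depended on the scaling and on single libraries. The bat change minus the mouse change was -0.96 (SE 0.28, 95% interval -1.56 to -0.37, edgeR adjusted p = 0.034), made of a bat HSF1 difference of -0.60 and a mouse Hsf1 difference of 0.37 neither of which was called. This test ran over only 49 rows that both tables hold under a symbol and that passed the filter, of which 10.2% were called, so the adjustment is over few rows. It was lost when any of 8 libraries was left out (bat control 1, bat heat 1, 2 and 3, mouse control 1 and 2, mouse heat 1 and 2), with values from -1.11 to -0.80 and adjusted p from 0.0147 to 0.11 over all 18 libraries. It was also lost with library size alone, at -0.69 (adjusted p = 0.107), and with median-ratio size factors over the matched rows, at -1.08 (adjusted p = 0.0639). With TMM over the matched rows the value was -1.52 (adjusted p = 0.00115), over 1.5 times as large. The values of the libraries behind it are those given above for bat and mouse muscle.

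**Figure D4:**
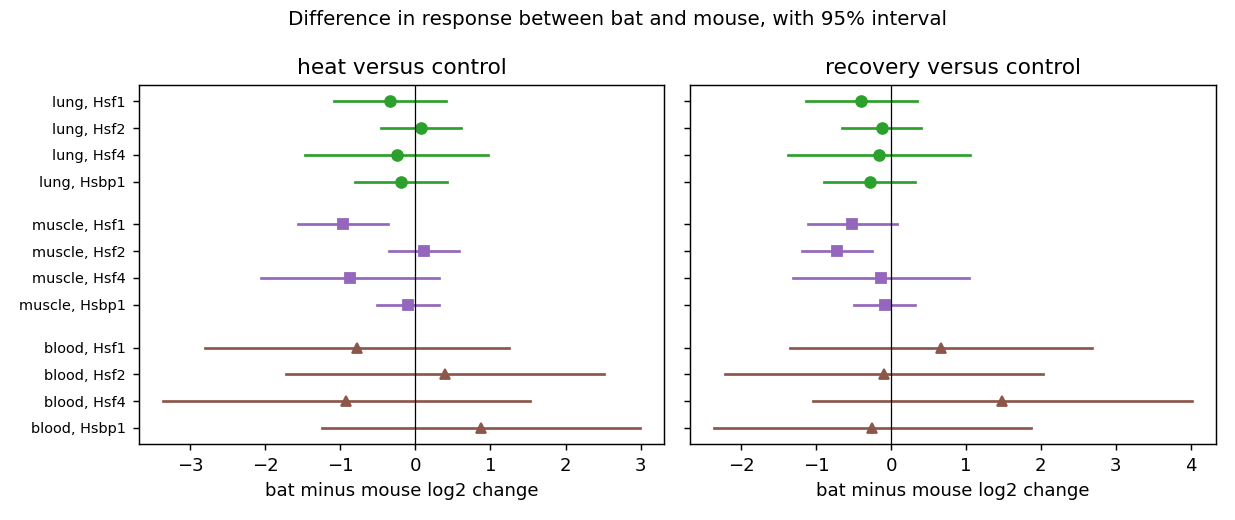
Bat change minus mouse change against control (log2), with 95% interval, for the 4 genes in lung, muscle and blood; the left panel shows heat and the right panel recovery, and each panel has its own axis. The intervals of Hsf1 in muscle at heat (-1.56 to -0.37) and Hsf2 in muscle at recovery (-1.19 to -0.25) do not reach 0, and those in blood are the widest.

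Hsf2 in muscle at recovery was the other value of note between species. Bat HSF2 differed from control by 0.21 and mouse Hsf2 by 0.93, and the bat change minus the mouse change was -0.72 (95% interval -1.19 to -0.25, edgeR adjusted p = 0.166), while the median of the 49 rows was -0.31. It did not pass the test. Over the 18 fits that each left out 1 library it ran from -0.83 to -0.56 (edgeR adjusted p 0.0329 to 0.375). Only the fit without mouse recovery 1 was called, at -0.83 (adjusted p = 0.0329). Other scalings gave smaller values: -0.58 with median-ratio size factors over the matched rows (adjusted p = 0.637), -0.68 with TMM over them (0.291) and -0.67 with library size alone (0.23). Of the same 49 rows, 0% were called at recovery. In lung 6.25% of 80 rows were called at heat and 0% at recovery, and in blood 0% of 61 rows at heat and 0% at recovery. Among the 4 genes the lung differences ran from -0.40 to 0.08 and the blood differences from -0.92 to 1.48, with 0 called. The 1.48, Hsf4 at recovery, was 0.36 without bat blood recovery 2.

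Listed chaperones and HSF1 target genes gave many calls in the same mouse libraries. The list was chosen with earlier results of these data known. Of 23 listed chaperones and HSF1 target genes, all tested in lung, 16 rose at heat and 0 fell, which is 69.6% called, against 5.85% of all rows. Their median log2 change was 1.95, against -0.01 over all rows. Chordc1, a co-chaperone of HSP90, rose by 1.90 (SE 0.18, edgeR adjusted p = 0.00173), Hspa4l, of the HSP110 family, by 1.49 (adjusted p = 0.00314), and Ahsa1, which activates the ATPase of HSP90, by 1.43 (adjusted p = 0.00657). The median of the 4 factor and partner genes in that comparison was 0.12. At recovery against control, 0 of the 23 were called in lung, against 0.0309% of all rows. Against heat, 17 fell at recovery (73.9%, against 11.3% of all rows called).

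In mouse muscle 8 of the 23 rose at heat (34.8%, against 0.428% of all rows called) and 3 at recovery (13%, against 0.0676%), and none fell in either comparison. The median change was 1.75 at heat and 1.39 at recovery, and the 3 called at recovery were Hspa1b (8.11, edgeR adjusted p = 0.0154), Hspa1a (7.83, adjusted p = 0.0154) and Hspb1 (3.13, adjusted p = 0.0182). Hspa1a and Hspa1b encode near-identical inducible HSP70 proteins, and how reads were divided between these copies is not certain, and Hspb1 encodes the small heat shock protein HSP27. In mouse blood 0 of 22 tested were called at heat, as were 0% of all rows. The median of the 22 there was 2.05 (0.02 over all rows). At recovery against heat 12 fell (54.5%, against 3.99% of all rows called), with a median of -2.13, against 0.01 over all rows.

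**Figure D5:**
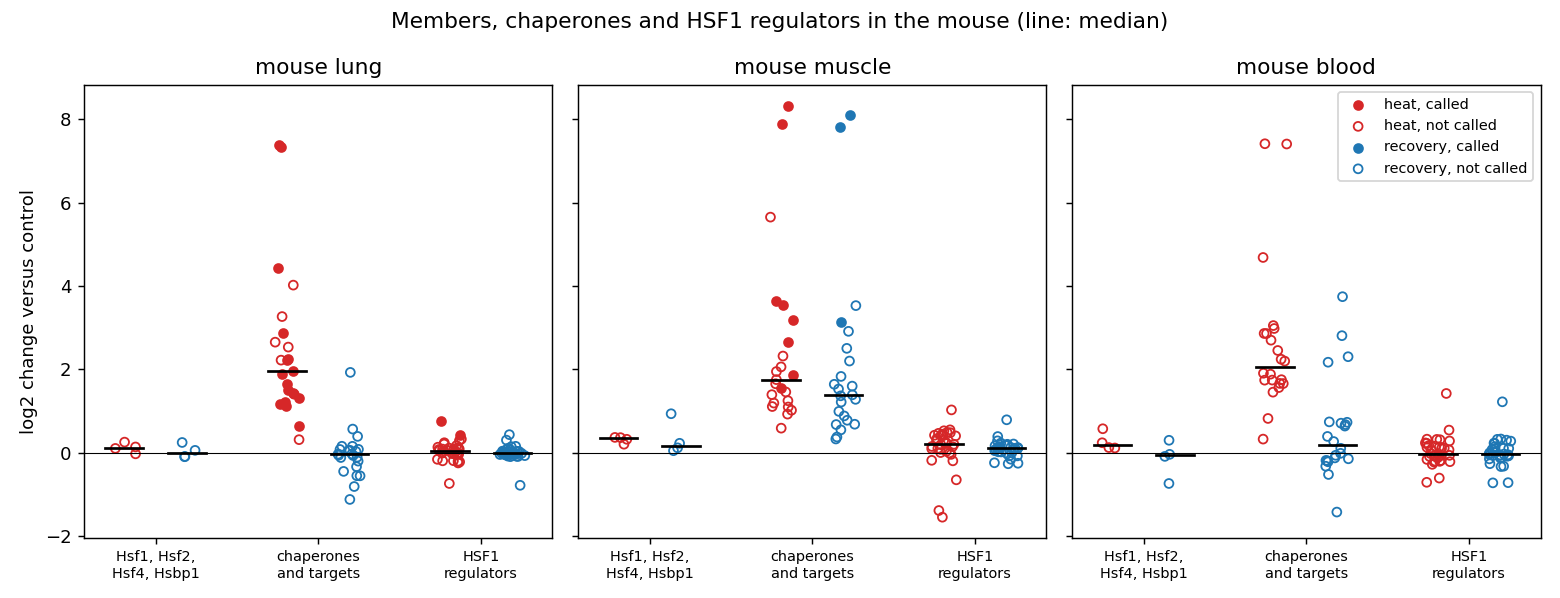
Log2 change against control in mouse lung, muscle and blood for the 4 factor and partner genes, 23 chaperones and target genes, and 34 HSF1 regulators and coactivators, where tested; filled points were called by edgeR, open points were not, red is heat, blue is recovery, and lines are medians. The chaperone medians at heat are 1.95, 1.75 and 2.05, against 0.12, 0.34 and 0.18 for the 4 genes.

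Genes known to regulate HSF1 were called in shares near those of all rows, and these counts say nothing particular about the list. The shares called were 6.06% in lung at heat (5.85% of all rows), 9.09% in lung for recovery against heat (11.3%) and 3.03% in blood for recovery against heat (3.99%), and the median log2 change at heat was 0.05 in lung, 0.22 in muscle and -0.02 in blood (-0.01, -0.05 and 0.02 over all rows). Of 33 tested, 2 rose in lung at heat: Ptges3, the HSP90 co-chaperone p23 (0.75, SE 0.11, edgeR adjusted p = 0.00657), and Ep300, an acetyltransferase that modifies HSF1 (0.42, SE 0.09, edgeR adjusted p = 0.0216). Against heat, both were lower again at recovery (Ptges3 -0.78, Ep300 -0.35, edgeR adjusted p = 0.00256 and 0.0279), and Rpa1, a DNA replication protein that joins HSF1 at promoters, was higher (0.33, adjusted p = 0.0257). In muscle 0 of 33 were called in each of the 3 contrasts. The 2 with the smallest p there at heat were Ptges3 (1.03, adjusted p = 0.0673) and Mapk3, a kinase (-0.65, adjusted p = 0.0731). In blood 0 of 33 were called at heat or at recovery against control, and Ptges3 was lower at recovery than at heat (-1.75, adjusted p = 0.027).

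Rows with the most similar pattern were sought among 7871 mouse rows with a mean of at least 5 CPM in each tissue, as the Pearson correlation of log2 levels, taken as deviations from the tissue mean, over the 24 mouse libraries. These are descriptions, and the rows share libraries, scaling and depth. For Hsf1 the closest were Tbrg4 (r = 0.92), Dvl1 (0.92) and Srf (0.92). For Hsf2 they included Zbtb20 (0.87) and Fnip1 (0.77). For Hsf4 they were Cog8 (0.87), Ccdc97 (0.81) and Eif3g (0.76), and for Hsbp1 Slain2 (0.87), Srp14 (0.86) and Vdac1 (0.86). In the bat only 11 rows with a usable name reached that level, so the search was not used there.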

How the data were processed

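The labels' protocols name TRIzol for the RNA and a directional NEBNext Ultra kit for the libraries. STAR 2.7 and featureCounts are the tools, and GRCm39 the build, that the submitters' processing notes list for all samples, the bat ones included. The bat assembly, the featureCounts version and the strand setting are not given in the sources used here. The deposited values are raw counts per gene, 1 column per library, with no normalization by the authors; all columns were used. Row names of the human type in the bat table are not paired with symbols by the files, so other bat genes are not named and the gene lists were counted in the mouse alone.

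Counts were tested with edgeR 4.0.16 (R 4.3.3), with filterByExpr (minimum count 10, minimum total 15), TMM scaling and the robust quasi-likelihood test, in 1 fit per species and tissue over control, heat and recovery. Levels and responses between tissues came from 1 fit per species over its 9 groups. P-values were adjusted by Benjamini-Hochberg over all rows tested, a row was called under 0.05, and "rose" and "fell" are used of called rows. Intervals are 95% and come from the fit. Heat and recovery share their control libraries. Where nothing says that libraries are separate animals, p-values measure only the spread between these libraries. DESeq2 1.42.0, other scalings, no filter, a replicate block and leaving out each library were alternatives. The comparison of species needed a table of human identifiers that was not at hand; it was made instead, as chosen after seeing the data, over rows matched through the 758 of 762 mouse identifiers in the bat table that have a symbol, plus the 4 pairs given. The sequence printed is from GENCODE M21 transcripts, which also gave lengths. Each fit of 1 species and tissue was tested on simulated counts with 200 rows changed, for heat against control alone. The fits over all tissues of a species and those over both species were not simulated. In the comparison of heat with control, edgeR recovered 17% of rows changed 2-fold and 55% of rows changed 4-fold among 19149 rows of bat lung, 24% and 61% among 15950 of bat muscle, and 0% and 0% among 16038 of bat blood. It recovered 60% and 91% among 19438 rows of mouse lung, 19% and 59% among 17746 of mouse muscle, and 12% and 60% among 15869 of mouse blood. The genes, lists and markers were chosen with earlier results of these data known. Named beside the 8 rows were up to 4 list genes a contrast with the smallest p among called rows, otherwise the 2 with the smallest p, and the 3 rows of most similar pattern, 1 of which is not reported here.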

Additional observations from a re-analysis of the deposited data

Results flagged for a closer look

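The response of Hsf1 in muscle at heat differed between bat and mouse by the test of the difference itself (bat change minus mouse change -0.96 on the log2 scale, edgeR adjusted p = 0.034 over 49 rows). The call was lost with library size alone (-0.69, adjusted p = 0.107), with median-ratio size factors over the matched rows (-1.08, adjusted p = 0.0639) and without any 1 of 8 libraries, and TMM over the matched rows gave -1.52. Both bat and mouse groups held 3 libraries. All 3 bat heat libraries were below all 3 bat control libraries, and 2 of 3 mouse heat libraries were above all 3 mouse control libraries. Neither change was called within its own species, and the size of the mouse change depended on the scaling (0.37 under TMM, 0.00 with library size alone).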

How the results depend on the processing

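Of 2636 values of single genes under an alternative, 2575 kept their side of the threshold and 5 reversed; 189 uncalled values had the opposite sign in an alternative. In 30 of 42 comparisons the number of the 4 genes called was unchanged or within 1.5 times in all alternatives run, and the exceptions follow. The reversed values were Hsf4 in mouse lung, recovery against heat (0.56 without heat 3; range over left-out libraries -0.25 to 0.56) and, for lung against muscle with library size alone, bat HSF2 (0.40), bat HSBP1 (0.21), mouse Hsf1 (0.32) and mouse Hsbp1 (0.0497). In mouse muscle 0 genes were called in the main analysis and 1 under these settings: at recovery against control with DESeq2, with no filter and with 1 fit over all tissues (0 to 1 over left-out libraries); at recovery against heat with these 3 and with library size alone; and at heat with 1 fit over all tissues (Hsbp1, 0.35). In mouse lung, recovery against heat, 0 to 1 were called over left-out libraries. For levels in control bats, lung against muscle gave 1 to 2 called over left-out libraries (3 with all), and lung against blood (1 with all) gave 0 with no filter or with the replicate block, 2 with control libraries only, and 0 to 1 over left-out libraries. In control mice, lung against muscle (3 with all) gave 1 with library size alone, and lung against blood (2 with all) gave 4 with library size alone, 1 with control libraries only and 1 to 2 over left-out libraries. For the mouse response at recovery, muscle against lung and muscle against blood gave 0 to 1 each. For bat minus mouse in muscle at heat, 1 gene was called, against 2 with TMM over the matched rows, 0 with median-ratio size factors over those rows, 0 with library size alone, 0 with the replicate block (Hsf1 -0.97, adjusted p = 0.091) and 0 to 1 over left-out libraries; at recovery it was 0 to 1. Apart from fewer rows or libraries entering a fit, the cause of these differences was not tested. Replicate numbers were not taken as pairs, since not every pair passed 0.1: same-numbered libraries correlated above 0.1 in 15 of 49 pairs within a tissue (-0.415 to 0.609) and in 23 of 48 pairs between tissues, among them 8 of 9 between bat lung and bat muscle (0.075 to 0.244). The tests between tissues thus treat libraries as independent, although some may share an animal. With the number as a replicate block, Hsf2 in mouse muscle at recovery gave 0.93 (adjusted p = 0.117). Bat HSF2 in control lung against muscle lost its call with that block (-1.01, edgeR adjusted p = 0.0619).

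Counts over all rows moved more. For heat, recovery and recovery against heat in turn, DESeq2 called 19, 910 and 449 rows in bat lung (edgeR 0, 9 and 24), 855, 1639 and 211 in bat muscle (6, 426 and 1), 0, 92 and 119 in bat blood (0, 0 and 0), 2161, 122 and 3102 in mouse lung (1138, 6 and 2197), 2607, 114 and 1211 in mouse muscle (76, 12 and 83) and 610, 62 and 1679 in mouse blood (0, 0 and 633). Leaving out 1 library moved edgeR's count at heat in mouse muscle between 0 and 2742 and at recovery in bat muscle between 17 and 375. Depth limits mouse Hsf4 in blood (1 to 32 reads).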

Other observations

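Other rows of the family had few reads in the mouse. Hsfy2 had 0 reads in 24 of 24 libraries, Hsf3 had 0 to 9 reads and Hsf2bp 2 to 13. Hsf5 had 1 to 65 reads and Hsbp1l1 0 to 112. Hsf5 was tested in all 3 tissues and Hsbp1l1 in lung and muscle, and neither was called in any contrast. The value with the smallest p was that of Hsf5 in lung, recovery against heat (log2 -1.33, SE 0.61, edgeR adjusted p = 0.18).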
